A study of Bubalus bubalis with 12 samples.

Results

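The comparison covered the buffalo corpus luteum (CL) 18 h after an injection of cloprostenol against untreated CL, and used 7 of the 12 arrays of the study. The control group (0 h) held 4 animals that received no treatment, and the 18 h group held 3 animals that were given 500 µg of cloprostenol in the muscle, a drug that mimics prostaglandin F2α (PGF2α). All were buffalo cows with normal estrous cycles, and cloprostenol was given on day 11 of the cycle, which is also the cycle day of the controls. Breed and age are not given in the labels. The whole CL was frozen and its RNA was hybridised to an array designed for cattle, so signals are compared between arrays for the same probe set and never between probe sets. The 5 remaining arrays, 2 at 3 h and 3 at 6 h, entered the fit, and so the SE and adjusted p of every comparison. Their levels are given below only where the 18 h group is set against earlier hours.

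After ovulation the follicle turns into the CL, a short-lived gland whose product is progesterone. Its steroidogenic cells take up or make cholesterol, move it into mitochondria through STAR, cleave it with CYP11A1 and its electron donor ferredoxin (FDX1), and turn pregnenolone into progesterone with HSD3B1. Luteinising hormone sustains this through its receptor LHCGR, and a dense capillary bed feeds it. PGF2α acts on its receptor PTGFR and ends the life of the gland, first by a loss of progesterone output, called functional regression, and later by the removal of cells, vessels and matrix, called structural regression. The question addressed by the 18 h group was which genes stand at a different level when regression is under way.

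Values below are log2 signals after robust multichip average (RMA) normalization. A difference is the mean at 18 h minus the mean of the controls on the log2 scale, ± the standard error (SE) of the limma fit. A gene was called, and is said to have risen or fallen, at a Benjamini-Hochberg adjusted p under 0.05 over 9155 genes. The labels count every array as a separate animal. Control replicates 1 and 4 were nevertheless closer to each other than the arrays of the other pairs of a group were (r = 0.997), and 6 probe sets differed over 2-fold between them against 220 to 1306 in those pairs. Control replicate 3 lay nearer to the treated arrays. Over the called genes its median position was 25.1% of the way from the mean of the other controls to the 18 h mean. The other controls, each placed in the same way, lay between -15.1% and 2.34%. In whole tissue, fewer cells of a type and less RNA per cell cannot be told apart. The tissue label fits the luteal markers, because STAR, HSD3B1 and CYP11A1 lay between 14.15 and 14.92 in the control arrays, near the highest signal of any array (15.33).

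At 18 h 744 genes were up regulated (8.13% of the genes tested) and 841 were down regulated (9.19%). Counts of list members below are to be read against these shares. The falls were more numerous but the rises were larger. A rise of at least 2-fold was found for 279 genes and a fall of that size for 176. At 4-fold or more there were 77 rises and 17 falls, and at 8-fold or more 20 rises and 1 fall, that of LRRC17. The 7 values of a gene split without overlap between the groups for 2887 genes (31.5%). The 30 largest rises and 30 largest falls named below were taken only from such genes. Their lack of overlap was thus set by the choice and is no result. The median difference over all genes was -0.02. Fewer genes passed when control replicates 1 and 4 were averaged into 1 sample (979), without control replicate 1 (976), without control replicate 4 (966), and with 18 h replicate 1 left out (843). Of the 979 genes, 978 were also called in the full data in the same direction.

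**Figure D1:**
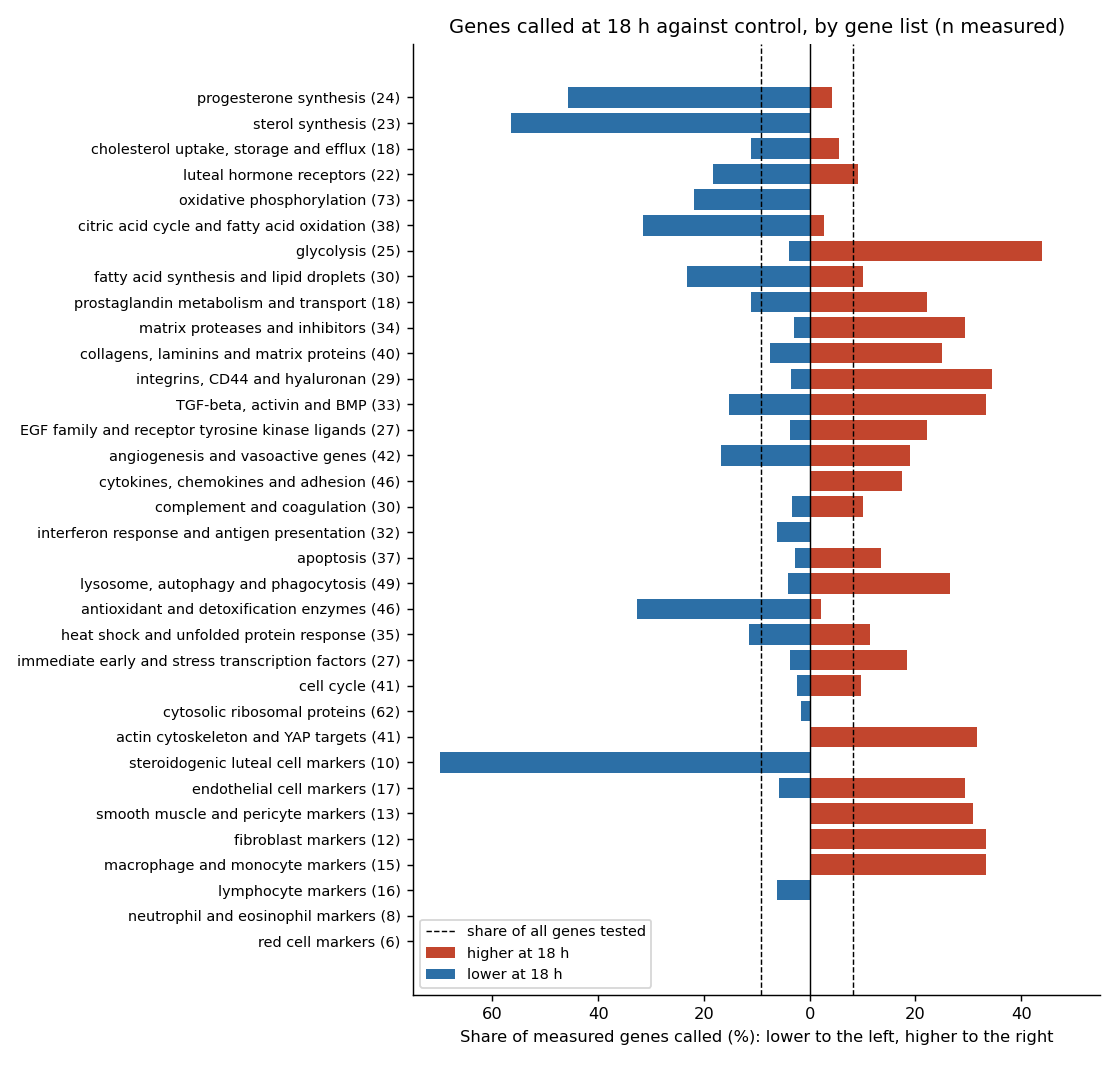
Share of the measured genes of each of 34 gene lists that were called higher (red, to the right) or lower (blue, to the left) at 18 h against control, in percent, with the number measured in brackets. Dashed lines mark the share of all 9155 genes, 8.13% higher and 9.19% lower. Luteal cell markers (7 of 10 lower) and sterol synthesis (13 of 23 lower) reach farthest to the left and glycolysis (11 of 25 higher) farthest to the right.

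The receptors for luteinising hormone and PGF2α fell. LHCGR had levels of 12.02, 11.23, 10.28 and 12.19 in the controls and 8.19, 10.15 and 7.67 at 18 h. The highest 18 h value lay just below the lowest control value, so the groups did not overlap, but both groups spread widely. The difference was -2.76 ± 0.61, a 6.77-fold fall (adjusted p = 0.0112), and it missed the threshold without 18 h replicate 1 (adjusted p = 0.0541). PTGFR, the receptor that cloprostenol itself binds, stood at 13.66, 13.45, 13.42 and 13.77 in the controls and at 12.14, 12.33 and 12.32 at 18 h. These groups were tight and lay more than 1 log2 unit apart, and PTGFR fell 2.48-fold (-1.31 ± 0.11, adjusted p = 7.6e-05). The other PTGFR probe sets, which had dimmer signals, gave larger falls of -2.18 and -2.11. The glucocorticoid receptor NR3C1 (-0.80 ± 0.18, adjusted p = 0.0116, but 0.0542 without 18 h replicate 1) also fell. Among 22 hormone receptors, hormones and related genes, 4 fell (PTGFR, LHCGR, the glucocorticoid receptor NR3C1 and the adiponectin receptor ADIPOR2) and 2 rose, the insulin-like growth factor receptor IGF1R and the membrane progesterone receptor component PGRMC1. The 4 falls were 1 without 18 h replicate 1. The list shares were 18.2% lower, against 9.19% of all genes, and 9.09% higher, near the 8.13% of all genes. IGF1R was not called without control replicates 1, 2 or 4 or 18 h replicate 1 (adjusted p 0.0502 to 0.0956), nor PGRMC1 without 18 h replicates 1 or 2 (0.0635 and 0.0507). As the mean of its probe sets neither gene was called (0.0758 and 0.46). The dimmer PGRMC1 probe set had a negative difference (-0.39, not called). The prolactin receptor PRLR gave -0.17 ± 0.37 with overlapping groups.

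Progesterone synthesis genes fell by unequal amounts. Of 24 genes measured 11 fell and 1 rose (median difference -0.39), and in the list of 10 luteal cell markers all differences were negative and 7 genes fell. The rise was that of AKR1B1, which was lost without control replicates 1 or 4 or 18 h replicates 1 or 2 (adjusted p 0.0564 to 0.0908). STAR had 14.91, 14.74, 14.71 and 14.82 in the controls and 14.42, 14.49 and 14.08 at 18 h, a 1.38-fold fall (-0.46 ± 0.11, adjusted p = 0.0132) with no overlap. For CYP11A1 the 18 h values of 13.82, 14.28 and 13.72 reached into the control range of 14.15 to 14.36, and the difference of -0.34 ± 0.13 was not called (adjusted p = 0.0956). It was called without 18 h replicate 2 (adjusted p = 0.0131). The lipoprotein receptor SCARB1, which brings in cholesterol ester, was also not called (-0.33 ± 0.16, adjusted p = 0.188).

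FDX1, the electron donor of the cleavage step, went from 14.51, 14.46, 14.57 and 14.40 to 13.63, 14.03 and 13.80 (-0.66 ± 0.12, adjusted p = 0.00419). HSD3B1 stood between 14.76 and 14.92 in the controls and at 13.42, 13.29 and 13.85 at 18 h, a 2.54-fold fall (-1.35 ± 0.16, adjusted p = 0.000521). Neither gene had an 18 h value within the control range. NR5A2, a nuclear receptor that drives steroidogenic genes, had 10.39, 9.53, 9.77 and 10.15 in the controls against 8.33, 7.89 and 7.70 (-1.98 ± 0.28, adjusted p = 0.00132). Its relative NR5A1 fell by 1.21 ± 0.26 (adjusted p = 0.00987), with control replicate 3 at 9.22 below the other controls (10.23 to 10.45). CYP19A1, the aromatase that makes estrogen, fell by 1.87 ± 0.25 (adjusted p = 0.000935). The other CYP19A1 probe sets, which had dimmer signals, were not called (-0.38, -0.09 and -0.01). STAR, CYP11A1 and HSD3B1 lay near the top of the scale, where RMA signals can understate a difference. The count of 11 falls was 7 without control replicate 1 or control replicate 4, and 6 without 18 h replicate 1 or 18 h replicate 3.

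**Figure D2:**
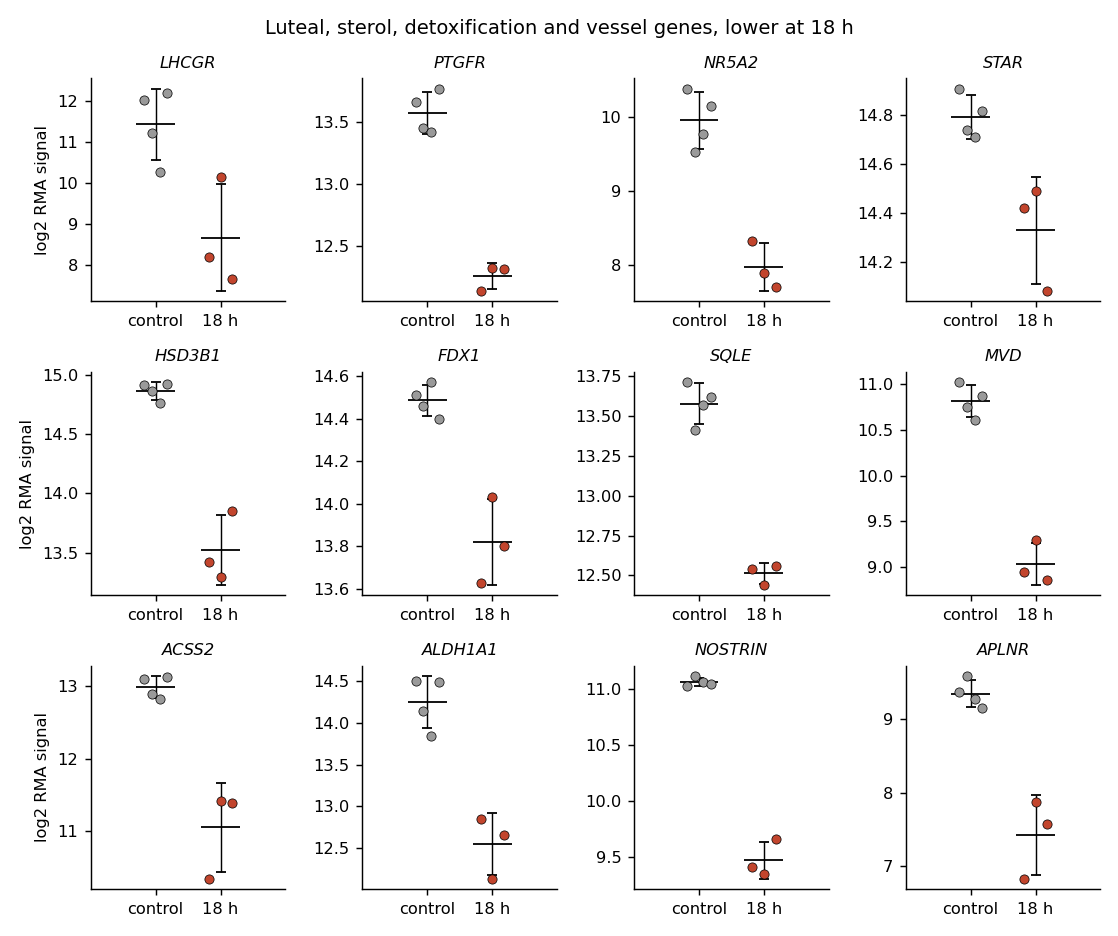
Log2 RMA signal of 12 genes that fell at 18 h, with a point for each array (grey, 4 controls; red, 3 arrays at 18 h), the group mean (long bar) and the SD (error bar). Each panel has its own axis, which does not start at 0, and in none do the groups overlap, although LHCGR comes close with 10.15 at 18 h against 10.28 in control replicate 3.

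Genes for early and late steps of cholesterol synthesis fell. Of 23 sterol synthesis genes measured 13 fell and none rose, 22 differences were negative and the median was -0.72. SQLE, squalene epoxidase, had 13.71, 13.41, 13.57 and 13.62 in the controls and 12.54, 12.44 and 12.56 at 18 h (-1.07 ± 0.11, adjusted p = 0.000279). MVD, the decarboxylase that ends the mevalonate steps, went from 11.02, 10.75, 10.61 and 10.87 to 8.94, 9.29 and 8.86, a 3.44-fold fall (-1.78 ± 0.21, adjusted p = 0.000525). FDFT1, squalene synthase, fell most in the list, 4.12-fold (-2.04 ± 0.36, adjusted p = 0.00353). In all 3 genes every 18 h array lay below every control array. NSDHL (-1.10 ± 0.13, adjusted p = 0.000544) and EBP (-1.30 ± 0.16, adjusted p = 0.000634), which act late in the pathway, fell as well, and the other genes called were HMGCS1, SREBF2, ACAT2, MSMO1, MVK, TM7SF2, CYP51A1 and LSS. SREBF2 is the transcription factor that switches on genes of this pathway. The count of 13 was lower, at 7, with the replicate number fitted as a block. It was also 7 when control replicates 1 and 4 were averaged and control replicate 3 was left out.

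Other lipid genes fell more often than they rose. ACSS2, which makes acetyl-CoA from acetate, fell from 13.10, 12.89, 12.82 and 13.13 to 10.34, 11.42 and 11.39, a 3.82-fold fall (-1.93 ± 0.24, adjusted p = 0.000727). All 3 values at 18 h lay more than 1 log2 unit below the lowest control. Fatty acid synthase FASN (-1.02 ± 0.18, adjusted p = 0.00412), the desaturase SCD (-0.69 ± 0.13, adjusted p = 0.00525) and malic enzyme ME1 (-0.68 ± 0.12, adjusted p = 0.0037) fell too, as did 4 more of the 30 genes for fatty acid synthesis and lipid droplets listed, GPAM, LPL, ELOVL6 and ACACA. In that list 23.3% fell, against 9.19% of all genes, and 10% rose, near the 8.13% of all genes. The 3 genes that rose coat or enlarge lipid droplets. PLIN2 rose by 1.17 ± 0.34 (adjusted p = 0.0369), CIDEC by 0.58 ± 0.15 (adjusted p = 0.0193) and CIDEA by 0.49 ± 0.13 (adjusted p = 0.0279), but this count of 3 was 1 without control replicate 1 or control replicate 4 and 0 without 18 h replicate 1 or 18 h replicate 2. The count of 7 falls was 3 without 18 h replicate 1. Hormone-sensitive lipase LIPE, which frees cholesterol from stored ester, fell from a range of 8.87 to 9.46 to one of 7.86 to 8.12 (-1.25 ± 0.14, adjusted p = 0.00048). In the list of 18 genes for cholesterol uptake, storage and efflux LIPE and NR1H3 were the 2 that fell, LCAT was the 1 that rose, and the median was 0.05. These shares, 11.1% and 5.56%, were near and below those of all genes (9.19% and 8.13%). NR1H3 was not called without control replicate 4 or 18 h replicates 1 or 2, nor LCAT without control replicate 4 or 18 h replicates 2 or 3 (adjusted p 0.0504 to 0.0621).

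Energy genes moved in opposite directions. Glycolysis genes rose, with 11 of 25 higher and 1 lower (median 0.32), and this count stayed within 1.5 times under every alternative tried. SLC2A3, a glucose transporter, had 6.91, 6.09, 6.91 and 6.34 in the controls and 10.24, 9.47 and 8.72 at 18 h, a 7.53-fold rise (2.91 ± 0.33, adjusted p = 0.00048). PFKFB3, which makes the activator of phosphofructokinase, rose from 5.71, 6.31, 7.55 and 5.81 to 9.68, 9.68 and 10.25 (3.52 ± 0.62, adjusted p = 0.00365). Both genes had control values well below all 18 h values, with control replicate 3 the highest control for PFKFB3. Phosphofructokinase PFKL (1.07 ± 0.15, adjusted p = 0.00133) and the lactate carrier SLC16A1 (0.94 ± 0.13, adjusted p = 0.00131) rose, and SLC16A3, GPI, SLC2A1, ENO1, TPI1 and PKM were also called. The aldolase ALDOC fell (-0.63 ± 0.13, adjusted p = 0.00746).

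Lactate dehydrogenase LDHA was among the most precise rises. It stood at 11.26, 11.45, 11.77 and 11.21 in the controls and at 13.64, 13.51 and 13.39 at 18 h, a 4.25-fold rise (2.09 ± 0.14, adjusted p = 2.31e-05). Its probe sets disagreed, however. Of 3 annotated to LDHA the brightest rose, 1 did not differ past the threshold (0.06) and 1 fell (-0.76, adjusted p = 0.00154 over probe sets). LDHA was the only named gene with probe sets called in both directions.

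The mitochondrial genes were lower by small amounts. Of 73 genes of oxidative phosphorylation 72 had a negative difference, with a median of -0.36, and 16 were called, all lower. NDUFA6, a subunit of complex I, went from a control range of 11.12 to 11.45 to one of 10.54 to 10.84 at 18 h (-0.67 ± 0.16, adjusted p = 0.0166). ATP5F1C, a subunit of the ATP synthase, went from 13.58 to 13.66 down to 13.10 to 13.34 (-0.41 ± 0.10, adjusted p = 0.0208). Neither call held without control replicate 1, 18 h replicate 1 or 18 h replicate 3 (adjusted p 0.0517 to 0.0947), nor that of NDUFA6 without control replicate 4 (0.0516). The count of 16 was 0 without control replicate 1, 18 h replicate 1 or 18 h replicate 3, 2 without control replicate 4, 3 without control replicate 2, 1 with control replicates 1 and 4 averaged, and 30 without 3 h replicate 1 or 3 h replicate 3.

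The citric acid cycle and fatty acid oxidation followed the same direction, with 12 of 38 genes lower, 1 higher and a median of -0.24. ECHS1, an enzyme of fatty acid oxidation, stood at 12.10, 12.24, 12.03 and 12.23 in the controls and at 11.56, 11.59 and 11.68 at 18 h (-0.54 ± 0.09, adjusted p = 0.00299). SUCLG2, a subunit of succinyl-CoA ligase, fell by 0.47 ± 0.09 (adjusted p = 0.00515). The groups did not overlap in either gene. The isocitrate dehydrogenases parted, with IDH1 lower (-0.64 ± 0.15, adjusted p = 0.0134) and IDH2 higher (0.72 ± 0.17, adjusted p = 0.0156), neither called without 18 h replicate 1 (adjusted p = 0.0539 and 0.0515), and IDH2 not without 18 h replicate 2 (0.0552). The 12 falls were 2 without 18 h replicate 1 and 6 without control replicate 1, control replicate 4 or 18 h replicate 3. Cytosolic ribosomal proteins, by contrast, lay close to 0 as a list, with 1 of 62 lower (RPS28, not called without control replicate 4 or 18 h replicates 1 or 3, adjusted p 0.0569 to 0.067) and a median of -0.05.

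**Figure D3:**
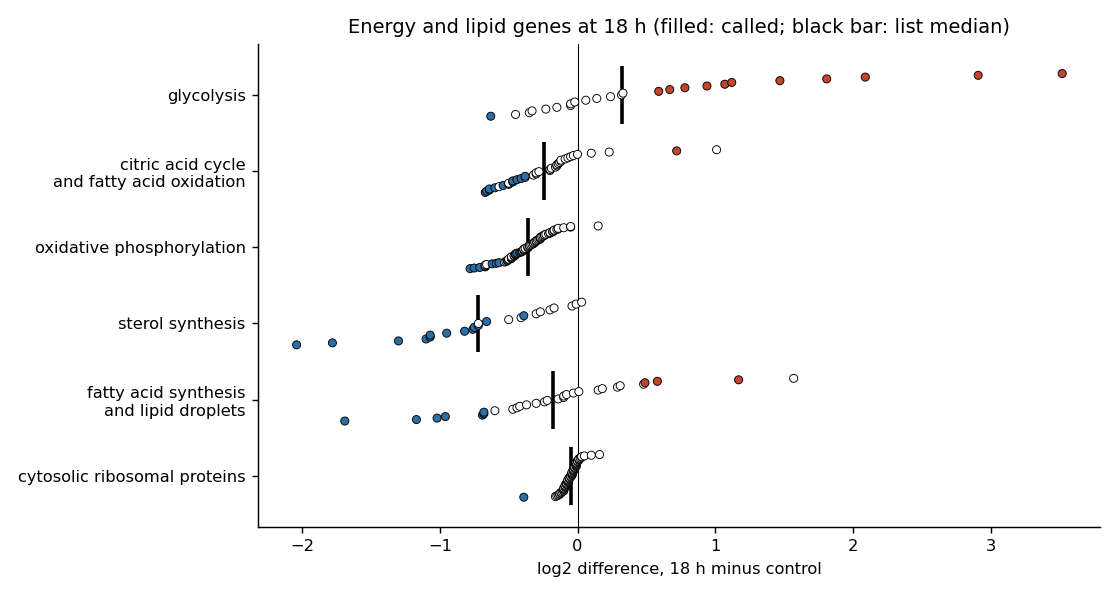
Log2 difference at 18 h minus control for each measured gene of 6 lists of energy, lipid and ribosomal genes. A point is a gene (red, called higher; blue, called lower; white, not called), sorted within its list, and the black bar is the list median, which runs from 0.32 for glycolysis to -0.72 for sterol synthesis.

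Enzymes that remove oxidants and foreign compounds were lower. Of 46 antioxidant and detoxification enzymes 15 fell and 1, PRDX6, rose, and the median was -0.26. ALDH1A1, which makes retinoic acid, had 14.51, 14.15, 13.85 and 14.49 in the controls and 12.85, 12.13 and 12.65 at 18 h (-1.71 ± 0.22, adjusted p = 0.000899). GSTA4, a glutathione transferase, fell from 13.07, 12.65, 12.14 and 13.11 to 10.79, 11.87 and 11.15 (-1.47 ± 0.29, adjusted p = 0.00635). In both genes control replicate 3 was the lowest control and still lay above every 18 h array. MGST3 (-0.81 ± 0.14, adjusted p = 0.00365) and the mitochondrial peroxiredoxin PRDX3 (-0.51 ± 0.11, adjusted p = 0.00803) fell, and catalase (CAT), SOD1, GCLC, GSS, NQO1, KEAP1, MGST2, AOX1, GSTT1, FMO1 and EPHX1 were also called lower. PRDX6 was not called without any single control or 6 h array or 18 h replicates 1 or 2 (adjusted p 0.0503 to 0.167). The count of 15 was 6 without control replicate 4 or 18 h replicate 1, 7 without control replicate 1 and 8 without control replicate 2 or 18 h replicate 2.

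Over 35 heat shock and unfolded protein genes 4 rose and 4 fell (11.4% each), shares near those of all genes (8.13% and 9.19%). The mitochondrial chaperones HSPE1 (-0.65 ± 0.12, adjusted p = 0.00443), HSPA9 (-0.49 ± 0.11, adjusted p = 0.0113) and HSPD1 (-0.31 ± 0.08, adjusted p = 0.0278) fell, together with HSPA2 (-1.10 ± 0.16, adjusted p = 0.00136). The cytosolic HSPH1 rose from a range of 10.61 to 11.13 to one of 11.45 to 11.89 (0.95 ± 0.17, adjusted p = 0.0035), and CRYAB, HSPA5 and DNAJC3 rose as well. The 4 rises were 1 without control replicate 1, control replicate 4, 18 h replicate 1 or 18 h replicate 3 and 7 without 3 h replicate 1 or 3 h replicate 3, and the 4 falls were 2 without 18 h replicate 1. HSPD1 was also lost without control replicates 1 or 4 or 18 h replicate 2 (adjusted p 0.0739 to 0.0836).

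Growth factors of the EGF and TGF-beta families were among the 30 largest rises. AREG, amphiregulin, an EGF receptor ligand, had 4.72, 5.54, 7.36 and 5.08 in the controls and 11.57, 11.76 and 10.79 at 18 h. It rose 51.8-fold (5.69 ± 1.03, adjusted p = 0.00419), and even control replicate 3, the highest control, lay more than 3 log2 units below the lowest 18 h array. INHBA, the subunit of activin A, went from 7.68, 8.39, 8.44 and 7.68 to 13.04, 11.56 and 12.74 (4.40 ± 1.01, adjusted p = 0.0134, but 0.0594 without 18 h replicate 1). Its inhibitory partner INHA, the alpha subunit of inhibin, fell by 0.99 ± 0.31 (adjusted p = 0.0474), which missed the threshold without control replicates 1, 2 or 4, any single 6 h array, or 18 h replicates 1 or 3 (adjusted p 0.0554 to 0.17).

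Of 33 genes of TGF-beta, activin and BMP signalling 11 rose and 5 fell (median 0.20). The ligands TGFB2 (2.38 ± 0.35, adjusted p = 0.00161) and BMP4 (1.74 ± 0.21, adjusted p = 0.000556) rose, as did TGFB1 and BMP2. PMEPA1, which TGF-beta induces and which restrains its signal, had 5.75, 6.16, 5.96 and 5.43 in the controls against 9.74, 8.80 and 8.57 (3.21 ± 0.30, adjusted p = 0.000209). TGIF1, a corepressor of the same pathway, rose by 2.27 ± 0.30 (adjusted p = 0.000943) and TGFBI, a matrix protein induced by TGF-beta, by 2.22 ± 0.34 (adjusted p = 0.0018). In contrast the BMP target genes ID1 (11.58, 11.67, 11.49 and 11.62 against 10.53, 10.68 and 10.45) and ID2 (-1.28 ± 0.20, adjusted p = 0.00189) fell, with ID1 at -1.04 ± 0.15 (adjusted p = 0.00133). The receptor TGFBR2 also fell (-0.72 ± 0.12, adjusted p = 0.00314), as did BMPR1A, while TGFBR1 was called higher. The 5 falls were 3 without control replicate 1 or 4, any single 6 h array, or 18 h replicate 1 or 3.

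Among 27 genes of the EGF family and of other tyrosine kinase ligands and receptors, 6 rose and 1 fell. PDGFRA, the receptor that marks fibroblasts, rose from 7.55, 9.06, 9.80 and 7.42 to 12.14, 10.74 and 11.65 (3.05 ± 0.57, adjusted p = 0.00504), and here the controls themselves spread over more than 2 log2 units. IGFBP5 (1.70 ± 0.31, adjusted p = 0.00433) and IGFBP4 (0.74 ± 0.15, adjusted p = 0.00704), which bind insulin-like growth factors, rose and IGFBP6 fell (-1.20 ± 0.23, adjusted p = 0.00557).

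Genes of matrix turnover rose more often than they fell. Of 34 proteases and inhibitors 10 rose and 1, the collagen chaperone SERPINH1, fell (median 0.22). PLAUR, the urokinase receptor, had 7.17, 6.91, 7.96 and 7.35 in the controls and a mean of 10.3 ± 0.29 (SD, n = 3) at 18 h (2.95 ± 0.37, adjusted p = 0.000767), and its ligand PLAU was called higher as well. MMP1, interstitial collagenase, rose from a signal of 3.89 to 4.31, near the floor of the array, to 7.11, 7.38 and 6.68 (2.97 ± 0.49, adjusted p = 0.0028). The inhibitor TIMP1 rose from 14.17, 14.41, 14.48 and 14.17 to 15.13, 15.11 and 15.16, close to the ceiling (0.83 ± 0.10, adjusted p = 0.000556). Each of these 3 genes split without overlap. The lysyl oxidase LOXL4, which cross-links collagen, rose by 2.78 ± 0.40 (adjusted p = 0.0014), and TIMP3, MMP9, MMP14, MMP19 and ADAMTS5 were also called. SERPINH1 was lost when any 1 of control replicates 1, 2 and 4, 6 h replicate 2 or the 18 h arrays was left out (adjusted p 0.0536 to 0.132).

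Of 40 matrix proteins themselves 10 were higher and 3 lower, with a median of 0.01. These shares, 25% and 7.5%, were above and below those of all genes (8.13% and 9.19%). SPP1, osteopontin, had 9.45, 10.51, 11.13 and 9.48 in the controls and 14.08, 12.85 and 13.04 at 18 h, a 9.09-fold rise (3.18 ± 0.47, adjusted p = 0.00155). The laminin chains LAMB1 (1.02 ± 0.08, adjusted p = 7.83e-05) and LAMC1 (0.99 ± 0.14, adjusted p = 0.00146) rose by similar amounts, and LAMB2 fell (-0.69 ± 0.21, adjusted p = 0.0446). FBLN5, which assembles elastic fibres, fell from 11.13, 11.21, 11.02 and 11.10 to 9.11, 9.45 and 9.20 (-1.86 ± 0.15, adjusted p = 7.6e-05) and COL13A1, a transmembrane collagen, by 2.50 ± 0.40 (adjusted p = 0.00246). For the fibrillar collagen COL1A1 the groups overlapped and the difference was 0.30 ± 0.33. The count of 10 was 5 without control replicate 1 or control replicate 4, and LAMB2 was not called without control replicates 1, 2 or 4, 6 h replicate 1 or 18 h replicates 1 or 3 (adjusted p 0.0535 to 0.142).

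In the list of integrins, CD44 and hyaluronan genes 10 of 29 rose and 1 fell (median 0.23), and most of the integrins were not called. CD44, the hyaluronan receptor, stood at 6.37, 7.27, 9.39 and 6.23 in the controls and at 11.59, 10.18 and 11.62 at 18 h (3.82 ± 0.64, adjusted p = 0.00307). Control replicate 3 lay within 1 log2 unit of the lowest 18 h array and the other controls were much lower. ITGB3 (1.99 ± 0.32, adjusted p = 0.00241) and ITGA5 (1.77 ± 0.30, adjusted p = 0.00307) rose, ITGAV was called higher, and galectin LGALS3 went from 12.29, 11.36, 11.66 and 12.34 to 13.82, 13.69 and 14.05 (1.94 ± 0.23, adjusted p = 0.000521). The hyaluronidase HYAL1 fell (-0.69 ± 0.15, adjusted p = 0.0103, but 0.0515 without 18 h replicate 1). The count of 10 was 6 without 18 h replicate 1.

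Actin genes and targets of the YAP coactivator rose together, with 13 of 41 higher, none lower, 35 positive differences and a median of 0.39. ANKRD1, a YAP target, had 8.59, 9.80, 9.62 and 8.51 in the controls and 13.47, 13.28 and 12.92 at 18 h, a 17.1-fold rise (4.09 ± 0.78, adjusted p = 0.00553). CAPG, which caps actin filaments, went from a range of 8.92 to 9.67 to 11.26, 11.17 and 11.07 (2.01 ± 0.20, adjusted p = 0.000279). The 18 h arrays agreed closely in both genes. TAGLN (2.27 ± 0.42, adjusted p = 0.00495) and ARPC2 (0.60 ± 0.10, adjusted p = 0.00322) rose, and CCN2, TPM2, TPM4, FLNA, CNN1, ACTG1, MYH9, PFN1 and ANXA5 were called. Leaving out 18 h replicate 1 gave a count of 6, and leaving out control replicate 1, control replicate 4 or 18 h replicate 2 gave 7.

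**Figure D4:**
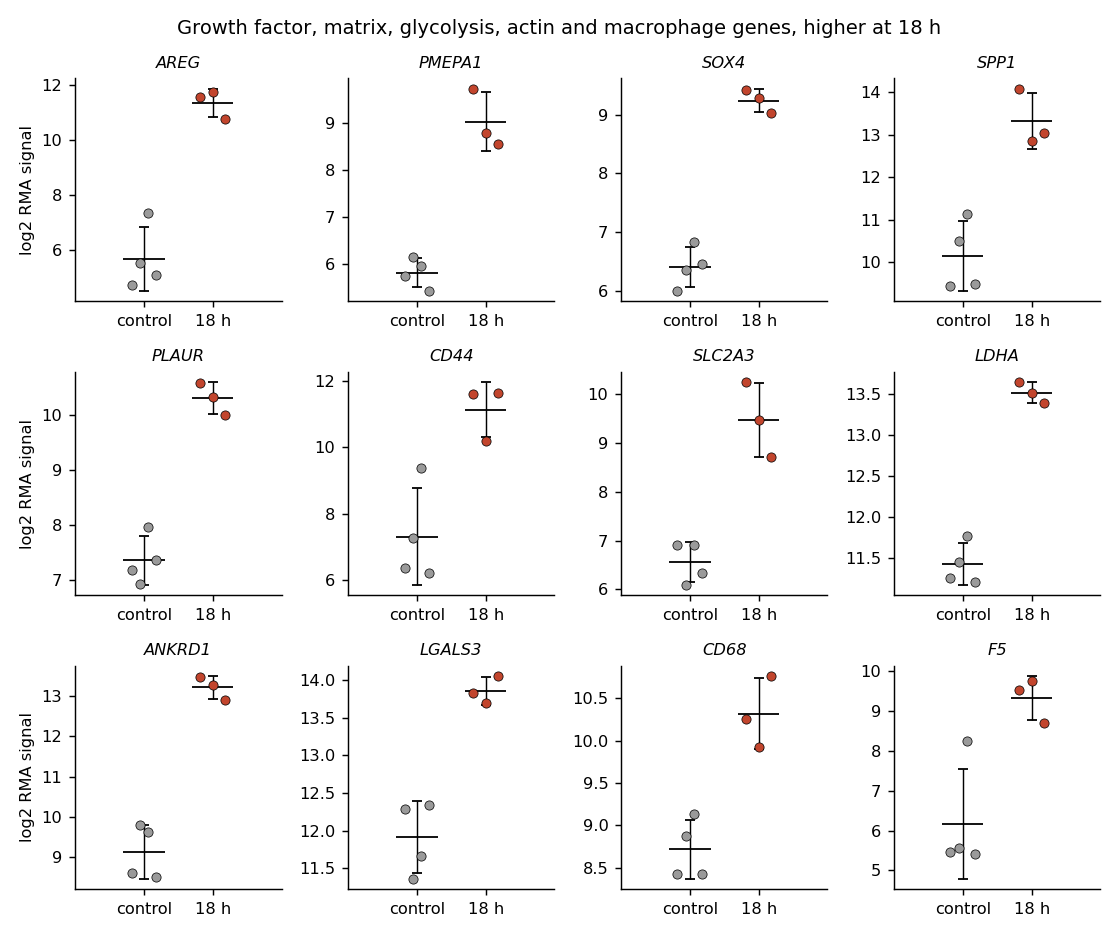
Log2 RMA signal of 12 genes that rose at 18 h, with a point for each array (grey, 4 controls; red, 3 arrays at 18 h), the group mean (long bar) and the SD (error bar). Each panel has its own axis, which does not start at 0. Control replicate 3, the third grey point, is the highest control for AREG (7.36), CD44 (9.39) and F5 (8.23), and no control reaches an 18 h value.

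Vessel genes went both ways. Of 42 angiogenesis and vasoactive genes 8 rose and 7 fell (median -0.01). These shares, 19% and 16.7%, were above those of all genes (8.13% and 9.19%). NOSTRIN, which draws endothelial nitric oxide synthase away from the membrane, had 11.02, 11.11, 11.06 and 11.04 in the controls and 9.41, 9.35 and 9.66 at 18 h, and fell by 1.59 ± 0.10 (adjusted p = 2.31e-05). The synthase itself, NOS3, rose by 1.33 ± 0.28 (adjusted p = 0.00824). ANGPT1, which stabilises vessels, fell from 10.01, 9.83, 9.70 and 9.89 to 7.97, 8.62 and 8.59 (-1.47 ± 0.16, adjusted p = 0.00039). The apelin receptor APLNR (9.38, 9.59, 9.28 and 9.15 against 6.83, 7.88 and 7.57) fell by 1.92 ± 0.22 (adjusted p = 0.000521) and the angiotensin receptor AGTR1 by 1.49 ± 0.19 (adjusted p = 0.00079). In all 3 every 18 h array lay below every control.

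The vascular growth factors parted. VEGFC, which acts on lymphatic vessels, rose from a range of 10.02 to 10.79 to one of 12.03 to 12.64 (2.00 ± 0.27, adjusted p = 0.00106), and endothelin EDN1, a vasoconstrictor, from 7.92, 9.40, 9.59 and 8.01 to 10.99, 11.23 and 11.06 (2.37 ± 0.44, adjusted p = 0.00474). VEGFA fell by 1.25 ± 0.31 (adjusted p = 0.0176), but the call was lost when 18 h replicate 2 (adjusted p = 0.062) or 18 h replicate 3 (0.0749) was left out. The other, dimmer VEGFA probe set was not called (-0.34, adjusted p = 0.373 over probe sets). As the mean of its probe sets VEGFA was not called either (adjusted p = 0.0567). Its receptor KDR had a dim signal, 5.62 to 6.02 in the controls and 5.29 to 5.30 at 18 h, and was not called (-0.53 ± 0.24, adjusted p = 0.153). KDR was called without 3 h replicate 1 or 3 h replicate 3 (adjusted p = 0.00524). The 8 rises were 5 without control replicate 1, control replicate 4 or 18 h replicate 3 and 4 without 18 h replicate 1.

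Markers of endothelial cells did not move as a block. Of 17 measured, 5 rose (VWF, PECAM1, NOS3, CLDN5 and TIE1) and 1 fell, with a median of 0.25, and the mean of the 17 marker signals was 8.63 to 9.03 in the controls and 9.0 to 9.09 at 18 h. PECAM1 (1.03 ± 0.20, adjusted p = 0.00634) and VWF (1.08 ± 0.15, adjusted p = 0.00132), an adhesion molecule and a clotting protein of endothelium, rose, as did the junction protein CLDN5 (0.62 ± 0.13, adjusted p = 0.00933). EMCN, endomucin, fell from 11.78, 11.72, 11.84 and 11.69 to 10.01, 10.31 and 10.40 (-1.52 ± 0.19, adjusted p = 0.000712). EMCN thus lay more than 1 log2 unit lower while PECAM1 and VWF lay about 1 unit higher in the same arrays.

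Markers of stromal cells were called higher only in part. Smooth muscle and pericyte markers rose in 4 of 13 (TAGLN, DES, CNN1 and ACTA2), with a mean signal of 8.95 to 9.66 in the controls and 9.69 to 9.92 at 18 h. DES, desmin, rose by 0.95 ± 0.18 (adjusted p = 0.00515). The pericyte markers RGS5 (0.15 ± 0.16) and PDGFRB (0.34 ± 0.15) were not called. Fibroblast markers rose in 4 of 12 (PDGFRA, DCN, LUM and FAP), with a mean signal of 9.79 to 10.44 against 10.51 to 10.93. The smooth muscle count was 2 without control replicate 1, control replicate 4, 18 h replicate 1 or 18 h replicate 2. The fibroblast count was 1 without control replicate 1 or control replicate 4 and 2 without 18 h replicate 3. Whether these cells contribute to the rises of matrix and actin genes above was not tested.

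Some macrophage markers rose, but the mean of all 15 measured was higher in control replicate 3 than in the treated CL. Of 15 measured, 5 rose (CD68, CD14, CD86, LAPTM5 and TYROBP, median 0.70). CD68, a lysosomal protein of macrophages, had 8.43, 8.87, 9.13 and 8.43 in the controls and 10.26, 9.93 and 10.76 at 18 h (1.60 ± 0.22, adjusted p = 0.000989). CD14, a receptor for bacterial lipopolysaccharide, rose from 8.64, 9.72, 10.85 and 8.94 to 12.11, 11.68 and 12.74 (2.64 ± 0.45, adjusted p = 0.00325). The costimulatory molecule CD86 rose by 1.53 ± 0.32 (adjusted p = 0.00902) although control replicate 3 (7.39) lay above the lowest 18 h array (7.31). The mean of the 15 marker signals was 7.91, 8.02, 9.45 and 7.98 in the controls and 9.28, 8.65 and 9.30 at 18 h, so the mean of control replicate 3 was above all 3 treated arrays. Without control replicate 3 the count of risen markers was 10. It was 3 without control replicate 1, 2 or 4, or without 18 h replicate 1 or 3. SPP1, CD44, LGALS3 and the lysosomal genes below are also expressed by macrophages, and the part of such cells in those rises was not tested. The complement genes C1QA, C1QB and C1QC lay near 0 (-0.05, -0.07 and -0.05). Lymphocyte markers (1 of 16 called, LCK, lower), neutrophil and eosinophil markers (0 of 8) and red cell markers (0 of 6) had medians of 0.02, 0.03 and -0.14 in the limma fit. LCK was not called without control replicate 4 or 18 h replicates 2 or 3 (adjusted p 0.064 to 0.0794).

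The same control array marked the cytokine genes. The chemokine CCL2, which draws monocytes, had 10.13, 9.85, 12.89 and 10.07 in the controls and 12.67, 12.12 and 13.38 at 18 h. With control replicate 3 inside the treated range the difference of 1.99 ± 0.70 was not called (adjusted p = 0.0726), and without that array it was (adjusted p = 0.00233). It was also called without 3 h replicate 1 or 3 h replicate 3 (adjusted p = 0.0499). Of 46 cytokine, chemokine and adhesion genes 8 rose and none fell in the full data, and 14 rose without control replicate 3. CXCR4 (2.01 ± 0.30, adjusted p = 0.00162), the alarmin IL33 (2.71 ± 0.57, adjusted p = 0.00863) and the TNF receptor TNFRSF1B (1.22 ± 0.15, adjusted p = 0.000717) rose. IL33 had 8.12, 8.70, 8.25 and 8.40 in the controls and 11.54, 10.91 and 10.78 at 18 h, so in this gene control replicate 3 did not stand apart.

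The immunoproteasome subunits PSMB9 and PSMB10 were the 2 genes called among 32 interferon and antigen presentation genes (median -0.04). Both fell, a share of 6.25% that is below the 9.19% of all genes. PSMB9 stood at 11.64, 11.49, 12.43 and 11.61 in the controls and at 10.86, 10.14 and 10.29 at 18 h (-1.36 ± 0.26, adjusted p = 0.0057). PSMB10 stood at 11.09, 11.10, 12.16 and 11.05 against 10.54, 10.51 and 10.28 (-0.91 ± 0.26, adjusted p = 0.0336). Control replicate 3 was the highest in both, on the side away from the treated arrays. PSMB10 was not called without any single 18 h array (adjusted p 0.0737 to 0.109). In the complement and coagulation list 3 of 30 rose, coagulation factor F5, tissue factor F3 and VWF, and complement C5 fell (-0.98 ± 0.21, adjusted p = 0.01). These shares, 10% and 3.33%, were near and below those of all genes. Without control replicate 3 this count of 3 was 5, and F3 was not called without control replicates 1 or 4 or any single 18 h array (adjusted p 0.0523 to 0.0772).

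Lysosome, autophagy and phagocytosis genes rose, with 13 of 49 higher and 2 lower (median 0.16). MCOLN1, a calcium channel of lysosomes, had 9.37, 9.43, 9.43 and 9.44 in the controls and 9.95, 10.31 and 10.31 at 18 h (0.77 ± 0.10, adjusted p = 0.000899). The protease CTSZ went from 11.14, 11.37, 11.73 and 11.12 to 12.39, 12.15 and 12.98 (1.17 ± 0.21, adjusted p = 0.0036), and MFGE8, which bridges dying cells to phagocytes, rose by 1.63 ± 0.28 (adjusted p = 0.00346). GABARAPL2, a protein of the autophagosome membrane, rose by 0.63 ± 0.10 (adjusted p = 0.00216). SQSTM1, WIPI1, ATG3, MERTK, ATP6V1H, ATP6V0D1, CTSB, CTSH and ASAH1 were also called, and ATG12 (-0.62 ± 0.18, adjusted p = 0.0325) and GAA fell. The count of 13 was 7 without 18 h replicate 1. ATG12 was not called without control replicates 1, 2 or 4 or 18 h replicates 1 or 3 (adjusted p 0.0599 to 0.144), nor GAA without control replicates 1 or 4 or 18 h replicates 2 or 3 (0.0568 to 0.0727).

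Of 37 apoptosis genes 5 were called higher (TNFRSF12A, BNIP3, BNIP3L, PDCD4 and TNFRSF21) and 1 lower (GADD45B), with a median of 0.10. These shares, 13.5% and 2.7%, were above and below those of all genes (8.13% and 9.19%). TNFRSF12A, a receptor for the TNF family, rose from 9.03, 9.12, 9.66 and 8.94 to 11.80, 11.65 and 11.59 (2.50 ± 0.25, adjusted p = 0.000279). BNIP3, which acts in the removal of mitochondria, went from 10.39 to 10.69 up to 12.28, 12.26 and 11.18 (1.36 ± 0.23, adjusted p = 0.00314), and its relative BNIP3L rose by 0.48 ± 0.09 (adjusted p = 0.00639). PDCD4 rose by 0.53 ± 0.11 (adjusted p = 0.00672). BAX, which opens the mitochondrial membrane, had overlapping groups (0.46 ± 0.31, adjusted p = 0.343). Without control replicate 3 the 5 rises were 9, and GADD45B was not called without control replicates 1, 2 or 4, 6 h replicate 1 or 18 h replicates 1 or 2 (adjusted p 0.0587 to 0.147).

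Of 27 immediate early and stress transcription factors 5 rose (BHLHE40, BTG3, BTG1, IER3 and ATF3) and 1, CEBPB, fell (median 0.27). These shares, 18.5% and 3.7%, were above and below those of all genes (8.13% and 9.19%). CEBPB was not called without any single control or 18 h array, 6 h replicate 1 or 6 h replicate 3 (adjusted p 0.0504 to 0.151). BHLHE40 rose from a range of 8.31 to 9.13 to one of 10.66 to 11.36 (2.34 ± 0.38, adjusted p = 0.00257), and the antiproliferative genes BTG3 (1.40 ± 0.19, adjusted p = 0.000994) and BTG1 (1.23 ± 0.26, adjusted p = 0.00838) rose. ATF3 had a large difference, 3.74 ± 1.08 (adjusted p = 0.0366), that rested on many arrays, since leaving out any 1 of the 4 controls other than replicate 3, or any 18 h array, gave adjusted p-values of 0.0671 to 0.109. The count of 5 was 10 without 3 h replicate 1 or 3 h replicate 3. In the cell cycle list 4 of 41 rose (MCM7, CDKN2B, CCNE1 and MCM6), 1 fell and the median was -0.13, so that the shares (9.76% and 2.44%) were near or below those of all genes. Cyclin D1 (CCND1) fell by 1.08 ± 0.16 (adjusted p = 0.00169), and the inhibitor CDKN2B (0.73 ± 0.15, adjusted p = 0.00899) and the replication gene MCM7 (0.52 ± 0.10, adjusted p = 0.00609) rose. That count of 4 was 2 without control replicate 4, 18 h replicate 1 or 18 h replicate 3.

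Prostaglandin genes moved both ways, with 4 of 18 higher and 2 lower (median 0.12). The share higher, 22.2%, was above the 8.13% of all genes, and the share lower, 11.1%, was near their 9.19%. HPGD, which inactivates prostaglandins, fell from 8.23, 7.25, 6.61 and 8.46 to 5.06, 5.51 and 5.45 (-2.29 ± 0.39, adjusted p = 0.00314). PTGIS, prostacyclin synthase, rose from a range of 8.63 to 8.91 to 11.48, 10.40 and 10.60 (2.11 ± 0.45, adjusted p = 0.00902). Neither gene had overlapping groups. PTGS2, the inducible cyclooxygenase, lay at 7.15 to 7.60 in the controls and at 8.35, 7.65 and 8.51 at 18 h and was not called (0.84 ± 0.40, adjusted p = 0.179). Its groups did not overlap, and it was called with the arrays of the compared groups alone (adjusted p = 0.0266). CBR3, ALOX12 and AKR1B1 were the other genes that rose, and LTA4H the other that fell (-0.78 ± 0.12, adjusted p = 0.00169).

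Several large changes lay outside these lists. SERPINA14, the uterine milk protein, rose 21.2-fold from 6.64, 6.98, 6.87 and 5.43 to 11.99, 10.38 and 10.29 (4.41 ± 0.57, adjusted p = 0.000814), and both its probe sets were called. The 30 largest rises also held neurofilament NEFM (4.48 ± 0.86, adjusted p = 0.00562), the neuropeptide galanin (GAL, 3.72 ± 0.51, adjusted p = 0.00106), the receptor GFRA2 (3.19 ± 0.42, adjusted p = 0.000899) and synaptotagmin SYT1 (4.97, 5.50, 5.05 and 5.35 against 7.77, 7.86 and 8.05; 2.67 ± 0.19, adjusted p = 5.6e-05). The SYT1 probe set used was dimmer in the controls than the other one (mean 5.22 against 6.59). That other SYT1 probe set was not called (0.15, adjusted p = 0.505 over probe sets). Thrombin (F2) rose by 2.89 ± 0.51 (adjusted p = 0.00355) next to F5, and the transcription factors SOX4 (2.82 ± 0.24, adjusted p = 0.000101) and MYB (2.74 ± 0.32, adjusted p = 0.000521) rose. The other F2 probe set was not called (-0.07, adjusted p = 0.668 over probe sets). FBXO32, a ubiquitin ligase of muscle wasting, rose by 3.13 ± 0.65 (adjusted p = 0.00802).

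The largest fall was that of LRRC17, a secreted protein with leucine-rich repeats, from 9.10, 9.64, 8.89 and 9.01 to 5.29, 6.04 and 5.33 (-3.60 ± 0.51, adjusted p = 0.00121), a 12.1-fold fall. PIM2, a kinase that favours survival, stood at 12.32, 12.44, 11.95 and 12.37 in the controls and at 10.46, 10.20 and 10.22 at 18 h (-1.98 ± 0.16, adjusted p = 7.09e-05). POLR1E, a subunit of RNA polymerase I, fell by 2.08 ± 0.16 (adjusted p = 5.6e-05). The amine oxidase AOC3 (-2.11 ± 0.26, adjusted p = 0.000604) and the clock-related factor HLF (-2.04 ± 0.30, adjusted p = 0.00163) also fell, and TNNI3 went from 8.61, 7.79, 6.42 and 8.93 to 5.64, 6.00 and 5.83 (-2.11 ± 0.46, adjusted p = 0.0101), with control replicate 3 close to the treated arrays. The other AOC3 probe sets, which had dimmer signals, did not fall and were not called (0.40 and 0.02, adjusted p = 0.0743 and 0.939 over probe sets).

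Set against 6 h, 54 genes were higher at 18 h (0.590% of the genes tested) and 32 were lower (0.350%). This contrast shares the 18 h arrays with the one above, so the values are given side by side and not as separate evidence. TMEM117 had group means of 7.39 at 6 h and 9.43 at 18 h against 7.48 in the controls, a difference from 6 h of 2.04 ± 0.23 (adjusted p = 0.00693). MTURN (1.81 ± 0.22, adjusted p = 0.00953) and the adenylyl cyclase ADCY2 (1.67 ± 0.19, adjusted p = 0.00693) likewise lay near the control level at 6 h and higher at 18 h. So did BNIP3 (1.25 ± 0.25, adjusted p = 0.0448), CTSZ (1.17 ± 0.22, adjusted p = 0.0379) and NCAM1 (1.35 ± 0.24, adjusted p = 0.0311). LDHA had a higher mean at each later hour, with of 11.42 in the controls, 11.92 at 3 h, 12.63 at 6 h and 13.51 at 18 h. EGLN3, an oxygen-dependent prolyl hydroxylase, was at 5.90 at 6 h and 7.70 at 18 h (1.80 ± 0.35, adjusted p = 0.0429).

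Some genes of luteal function were lower at 18 h than at 6 h. PTGFR fell by a further 0.85 ± 0.11 (adjusted p = 0.011), and the differences were -0.87 ± 0.17 for HSD3B1 (adjusted p = 0.042) and -0.73 ± 0.12 for SQLE (adjusted p = 0.0235). FBLN5 dropped by 1.08 ± 0.16 (adjusted p = 0.0207). Other genes had higher means at 6 h than at 18 h. MARK1, FAM83D, MTTP, CD320 and BAMBI lay above the control mean at 6 h and had means at 18 h that differed from the controls by 0.12, 0.03, -0.86, -0.65 and 0.18, none called. MTTP was called lower than the controls with the arrays of the compared groups alone (adjusted p = 0.018) and without either 3 h array (0.00873), and CD320 with the arrays of the compared groups alone (0.0163) and without 6 h replicate 1 or 2 (0.0272 and 0.0276). PTHLH, the parathyroid hormone-like hormone, had 12.66 in the controls, 10.45 at 6 h and 12.44 at 18 h, a difference of 1.99 ± 0.38 between the last 2 (adjusted p = 0.0379). The 86 calls rested on few arrays. Leaving out 6 h replicate 2 gave 5 calls and leaving out 6 h replicate 3 gave 14. With 18 h replicate 1, 2 or 3 left out there were 20, 17 and 25 calls, and with control replicate 1, 2 or 4 left out 37, 50 and 32. Leaving out either 3 h array gave 162.

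**Figure D5:**
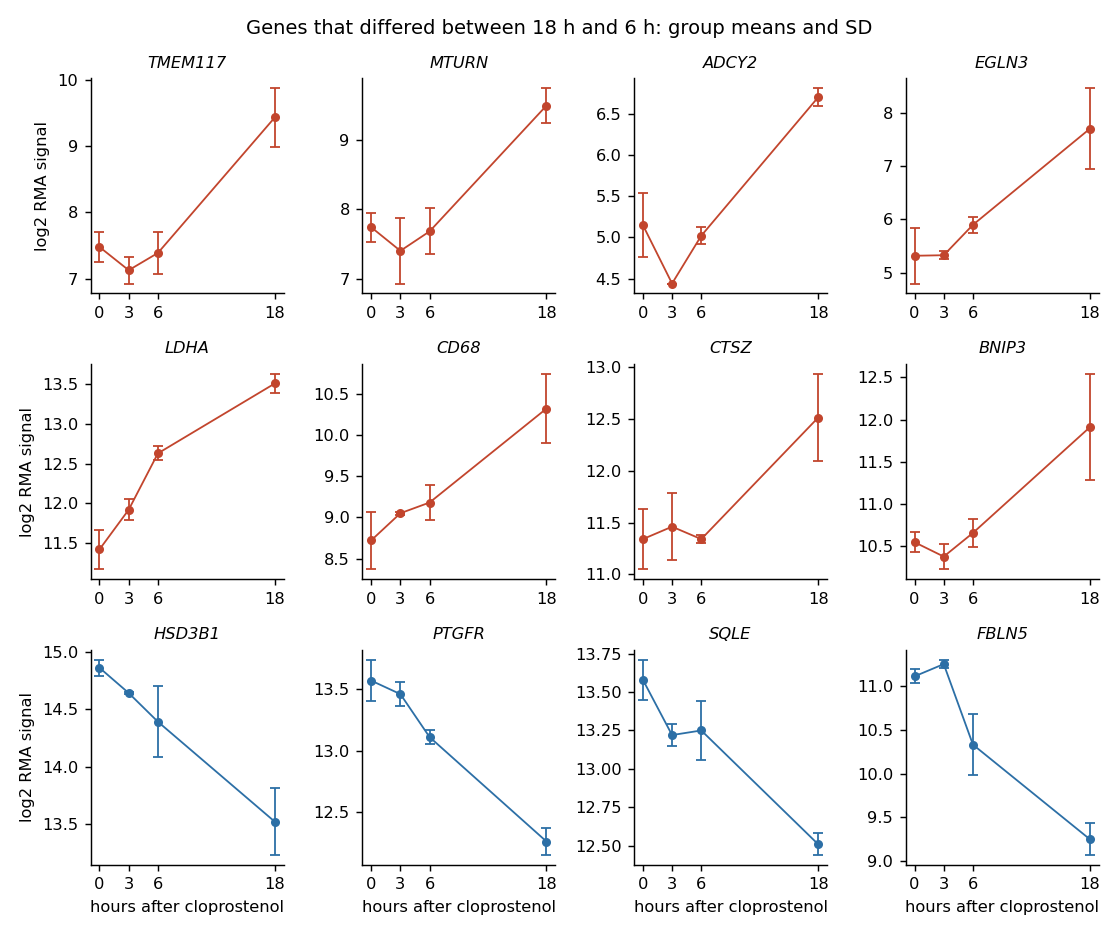
Group means of log2 RMA signal against hours after cloprostenol (0 is the control group) for 12 genes that differed between 18 h and 6 h, with SD as error bars and 4, 2, 3 and 3 arrays at 0, 3, 6 and 18 h. Red genes were higher at 18 h than at 6 h and blue genes lower, and each panel has its own axis, which does not start at 0. TMEM117 and CTSZ lay near the control mean at 6 h and rose by 18 h, whereas LDHA was higher at each later hour.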

How the data were processed

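RNA of whole CL was measured on the GeneChip Bovine Genome Array. The authors deposited values on the log2 scale which, per the labels, come from robust multichip average (RMA). RMA subtracts background, brings the arrays to a common distribution and gives 1 value for each probe set. RMA compresses differences at low signal and near the ceiling. The software version was not given in the sources used here, nor the chip definition, and scanner files were not used here. The paper given with the series described another experiment and was used for style only.

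Of 24128 probe sets 112 control probe sets were left out, and 24016 were tested. The platform annotation, which refers to cattle genes, gave 13292 of them a single symbol, 86 several and 10638 none. A gene was represented by its single-symbol probe set with the highest mean over 12 arrays (9155 genes, 2913 with more than 1 probe set). No table of sequences was available to these steps, so promoter motifs were not analysed here and no coordinates are given.

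All 12 arrays were fitted by group in R 4.3.3 with limma 3.58.1 (lmFit, contrasts.fit and eBayes), two-sided, with Benjamini-Hochberg adjustment within each comparison and a threshold of 0.05. The number of arrays limits the precision. The 34 gene lists (26 pathways, 8 cell types) and the rule for named genes were chosen with earlier results of these data known. The rule took 30 rises and 30 falls without overlap between groups, up to 4 genes of each list in each direction by adjusted p, 10 differences from 6 h in each direction and 32 fixed genes, some of which are not reported here. This named 212 genes. Genes listed without values, and those given only as uncalled examples (C1QA, C1QB, C1QC, RGS5, PDGFRB), were chosen after their values were seen. Lists are described by counts and medians. The steps were tested on simulated data. Alternatives were the arrays of the compared groups alone, leaving out the dimmest 40% of probe sets, median centring, repeated quantile normalization, trend and robust moderation, the replicate number as a block, averaging control replicates 1 and 4, the mean of the probe sets of a gene, a 2-fold minimum and leaving out each array.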

Additional observations from a re-analysis of the deposited data

Results flagged for a closer look

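Of 212 named genes 18 had a control array apart from the other 3, with a gap to them, over the range of the 4 controls, above Dixon's 95% critical value. Chance flags about 1 in 20 groups, and the closeness of control replicates 1 and 4 makes such gaps easier to reach. Control replicate 3 was the array apart in 14 genes. It was high for CCL2 (12.89, others 9.85 to 10.13), F5 (8.23, others 5.42 to 5.57), CD86 (7.39, others 6.15 to 6.33), LAPTM5 (11.09, others 9.71 to 9.90), PSMB9 (12.43, others 11.49 to 11.64), PSMB10 (12.16, others 11.05 to 11.10), IGF1R (9.08, others 8.49 to 8.51) and PTGIS (8.91, others 8.63 to 8.66). It was low for EPHX1 (9.87, others 11.32 to 11.60), GPAM (8.75, others 9.46 to 9.60), BAMBI (7.79, others 8.53 to 8.62), HSPA2 (9.62, others 10.12 to 10.18), PTPRR (11.11, others 11.65 to 11.67) and PTHLH (12.21, others 12.76 to 12.87). Control replicate 2 was high for TMEM88 (10.21, others 9.54 to 9.65) and AKR1B1 (11.26, others 11.04 to 11.05), control replicate 4 was low for ALOX12E (4.99, others 5.59 to 5.68) and control replicate 1 was low for LAMB1 (10.86, others 10.99).

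For 30 named genes the level at 18 h differed from that at 6 h in the limma contrast (log2 difference, 18 h minus 6 h). Those higher at 18 h were TMEM117 (2.04), ALOX12E (1.99), PTHLH (1.99), MTURN (1.81), EGLN3 (1.80), ADCY2 (1.67), RASL11B (1.43), MXRA8 (1.37), PPFIBP1 (1.37), NCAM1 (1.35), BNIP3 (1.25), CTSZ (1.17), CD68 (1.13), LDHA (0.88), MCOLN1 (0.74), BNIP3L (0.59) and LAMB1 (0.52). Those lower at 18 h were MTTP (-1.98), TC2N (-1.73), FAM83D (-1.58), MARK1 (-1.56), CD320 (-1.53), ABHD6 (-1.41), RBBP8 (-1.37), BAMBI (-1.36), FBLN5 (-1.08), NAP1L5 (-0.97), HSD3B1 (-0.87), PTGFR (-0.85) and SQLE (-0.73).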

How the results depend on the processing

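The number of probe sets called at 18 h against 0 h was 2964, and 1856 with control replicates 1 and 4 averaged, 892 at 2-fold or more and 1542 to 3867 when 1 array was left out. The number of genes, 1585, was 979 with those controls averaged, 455 at 2-fold or more and 843 to 2079 with 1 array left out. The fit of the compared groups alone gave 1850 genes and the other settings 1549 to 1625. Against 6 h the 86 genes were 51 in the fit of the compared groups alone, 40 with the controls averaged and 5 to 162 with 1 array left out. With the controls averaged and control replicate 3 left out, a setting chosen after seeing the data, the counts were 1080 against 0 h and 27 against 6 h. Against 3 h the 404 genes were 71 in the fit of the compared groups alone and 127 to 853 with 1 array left out. The 2 arrays at 3 h were the pair of a group farthest apart (r = 0.973), and their spread enters every comparison. Leaving out either of them leaves 1 array at 3 h, which adds nothing to the spread. Both therefore gave the same calls against 0 h and against 6 h, and count as 1 alternative there. Where the cause is not the number of arrays or genes, or this loss of the 3 h spread, it was not tested.

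Same-numbered control and 18 h arrays deviated together by r = 0.01, 0.16 and 0.23, and pairs with unlike numbers by -0.33 to 0.21. The labels do not say whether a number marks a shared batch, and whether it does was not tested. With the replicate number as a block the calls were 1480 probe sets and 754 genes at 18 h against 0 h and 116 genes against 3 h. List counts at 18 h against 0 h dropped as well. Falls were 5 instead of 11 for progesterone synthesis and 1 instead of 16 for oxidative phosphorylation. They were 3 instead of 12 for the citric acid cycle list and 5 instead of 15 for antioxidant enzymes. Rises were 6 instead of 13 for actin genes and YAP targets. Against 6 h the block left 0 genes in limma, while 1217 genes had an unadjusted p under 0.05 without the block.

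Of the values of named genes under these settings 4039 kept direction and side of the threshold, 375 were no longer called, 15 became called and 8 turned sign, all in genes not called at 18 h. These were BAMBI (-0.01 without control replicate 3, also with the controls averaged, and -0.01 to 0.27 with 1 array left out), FAM83D (-0.03 without control replicate 3, -0.24 without 18 h replicate 1 and -0.04 in the setting added later), MARK1 (-0.02 as the mean of its probe sets) and PRLR (0.02 without control replicate 1 and 0.23 without 18 h replicate 2, and -0.51 to 0.23 with 1 array left out). Dim probe sets such as KDR and MMP1 in the controls limit what a fold can show, and without scanner files their signal over background is unknown.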
